A study of Mus musculus with 4 samples.

Results

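Lysosomal genes were followed in bone marrow-derived macrophages (BMDM) that had been given CRISPR-Cas9 lentivirus against Adcy7, and in BMDM given the same kind of virus against Rosa. The set held 38 genes chosen by name, with cathepsins left out: the MiT/TFE transcription factors, lysosomal membrane proteins, hydrolases with their cofactors, and subunits of the proton pump. All 38 were found by symbol among the 55401 Ensembl genes of the deposited count table. Such macrophages are obtained by letting marrow progenitors mature in a dish, and the donor mice were C57BL/6J. The Adcy7 knockout group had 2 libraries and the Rosa control group had 2 libraries, all with batch number 1. Virus was added to both groups on day 1, at 30 infectious particles per cell, and differentiation lasted 5 days. Adcy7 codes for an adenylyl cyclase, an enzyme that makes cyclic AMP, and Rosa is a locus commonly used as a neutral target. The labels do not say whether the libraries of a group came from separate mice or cultures, nor how many guides were used, so each p-value reflects the spread among these 4 libraries alone, and that spread may be technical.

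The lysosome is the acidic compartment in which macrophages break down what they engulf. A vacuolar ATPase, built of a membrane sector (V0) and a catalytic sector (V1), pumps protons into it, and hydrolases that work at low pH degrade glycans, proteins and lipids there. The factors Tfeb, Tfe3 and Mitf bind short elements near many lysosomal genes, and their entry into the nucleus is held back by a kinase complex on the lysosomal surface when nutrients are plentiful.

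Library totals were 61782358 to 71914179 counts, and levels are given as CPM, the counts of a gene scaled to a common library total. Adcy7 itself was at 59.4 and 58.8 CPM in knockout replicates 1 and 2, and at 122 and 125 CPM in control replicates 1 and 2. Both knockout libraries were lower, with 48.4% of the control level remaining (log2 fold change -1.05, standard error (SE) 0.09, adjusted p = 4.6e-06 in edgeR's quasi-likelihood test). The macrophage genes Adgre1 and Csf1r were present in every library, at 864 CPM or more and 1168 CPM or more, but both fell, to 60.8% and 69.2% of the control level. Of 13 macrophage markers 11 fell and 1 rose, where 24.6% and 25.0% of all tested genes did so. The summed level of the 13 was 22781 to 22980 CPM in the knockout and 58353 to 60193 CPM in the control, most of it from Lyz2. C1qb, which codes for a complement chain, was at 0.487 and 0.0647 CPM in the knockout and at 453 and 384 CPM in the control. The macrophage markers Mrc1, Mertk, Aif1, C1qa and C1qc were likewise at 0.405 CPM or less in the knockout and at 16.7 CPM or more in the control.

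Within the lysosomal set more genes were higher than lower in the knockout. Of the 38 genes, all of which passed the filter on low counts, 19 rose, 8 fell and 11 did not pass an adjusted p of 0.05. Among all 15832 tested genes 25.0% rose and 24.6% fell, against 50.0% and 21.1% of the lysosomal genes. Genes of high level pass more easily: of the 6415 tested genes with a mean of at least 20 CPM, 61.1% passed in either direction (28.5% higher and 32.7% lower), and 26 of the 37 lysosomal genes above that level did. The median log2 fold change was 0.26 over the set and 0.015 over all tested genes. A change of at least 2-fold was seen in 7 lysosomal genes that rose and 2 that fell, where 11.8% and 10.3% of all tested genes did so. The libraries of the groups did not overlap for 34 of the 38 genes, and for 75.2% of all tested genes. In bulk RNA, a change in the share of cells that carry a transcript and a change in its amount per cell cannot be told apart.

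By role, all 3 transcription factors fell, 4 of 6 membrane proteins rose, and 9 of 11 proton pump genes rose while the other 2 fell. Hydrolases, carriers and cofactors were split, with 6 of 18 higher, 3 lower and 9 that did not pass. In either direction 50% of these 18 passed, 66.7% of the membrane proteins and 100% of the factors and of the pump genes. Of all tested genes 49.6% passed, and of those with at least 20 CPM 61.1%. Differences between the roles were not tested. The summed level of the set was 34447 and 33076 CPM in the knockout and 25339 and 23925 CPM in the control. Most of the gap came from Gpnmb alone: without it the sums were 22869 and 21842 CPM against 22566 and 21235 CPM, and the groups overlapped. Of the remaining genes Psap, which did not pass, had the highest level, at 8695 and 7993 CPM against 9851 and 8731 CPM.

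**Figure D1:**
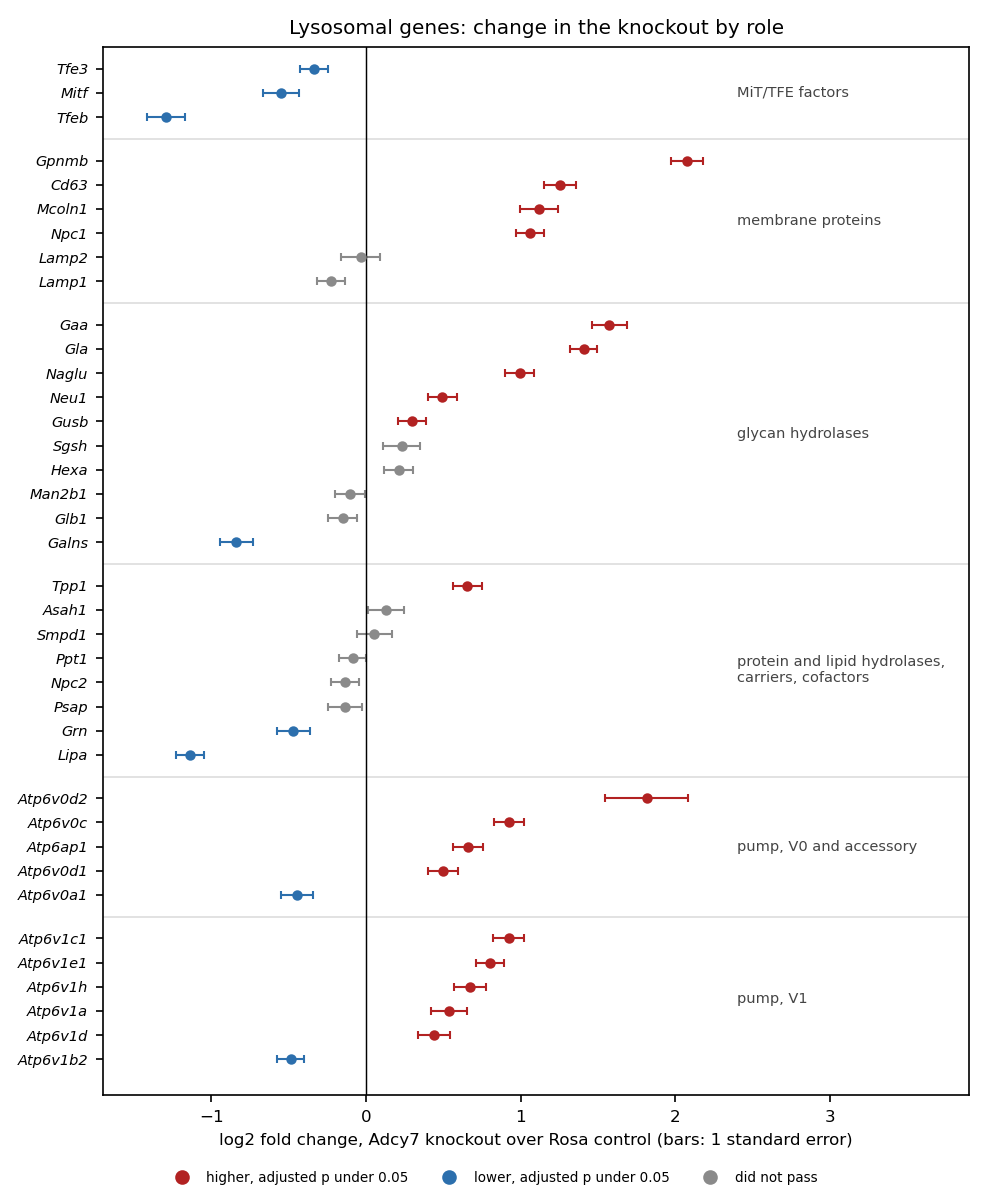
Log2 fold change of each of the 38 lysosomal genes, Adcy7 knockout over Rosa control, on the horizontal axis, with bars of 1 SE and genes grouped by role. The 3 MiT/TFE factors lie left of 0, 9 of 11 pump genes lie right of it, and Gpnmb has the highest value, 2.08.

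**Figure D2:**
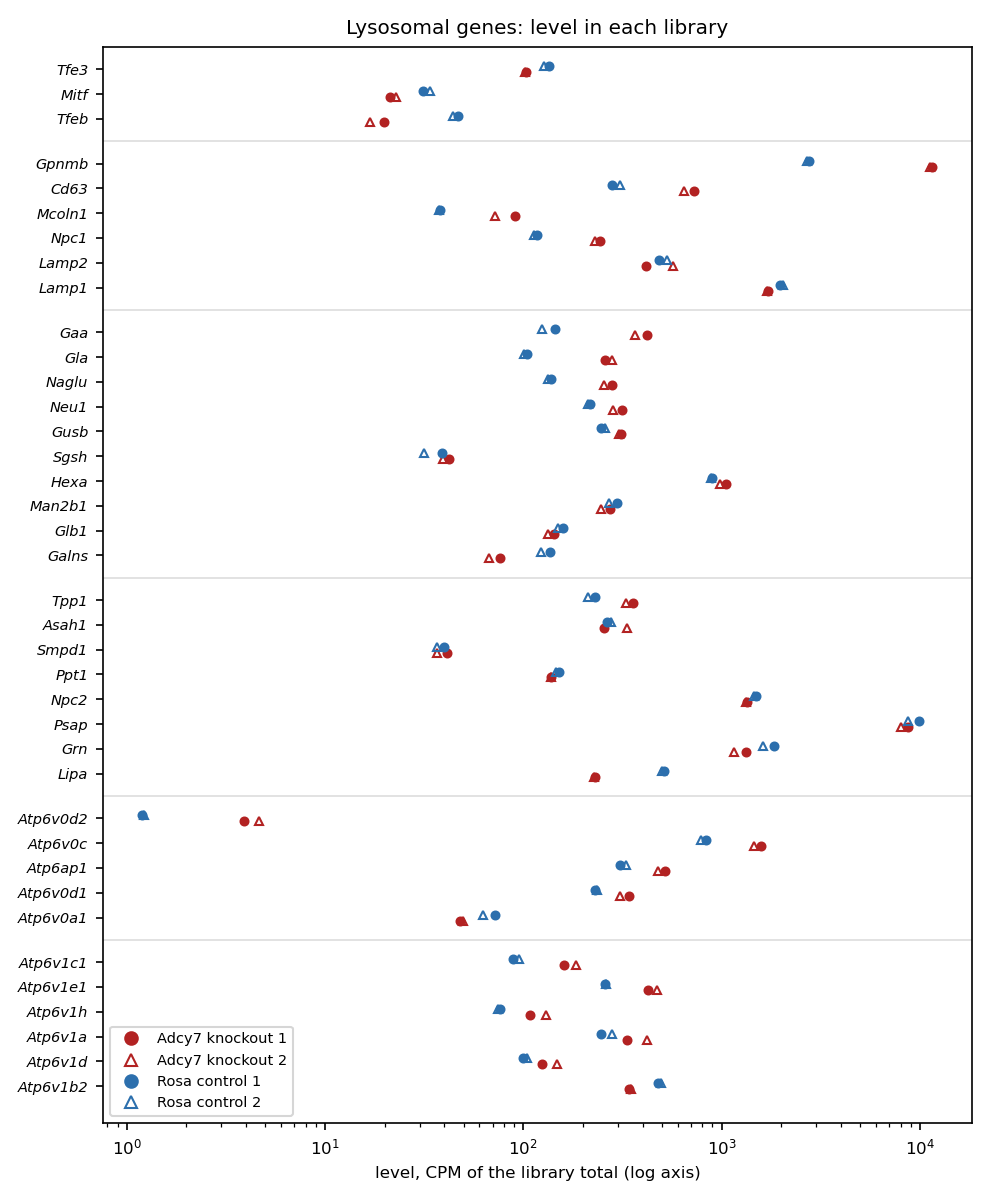
Level of each gene in each of the 4 libraries in CPM on a log axis, with knockout libraries in red and control libraries in blue (circles replicate 1, triangles replicate 2). Levels are to be read across libraries within a gene, since CPM also depends on transcript length.

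The MiT/TFE factors were lower in the knockout. Tfeb (ENSMUSG00000023990) was at 19.7 and 16.8 CPM in the knockout and at 46.7 and 44.0 CPM in the control. Both knockout libraries were below both controls, and Tfeb kept 40.8% of the control level (log2 fold change -1.29, SE 0.12, adjusted p = 7.03e-06), the largest fall in the set. Mitf (ENSMUSG00000035158), known as the master factor of melanocytes and also active in osteoclasts, was at 21.4 and 22.7 CPM against 31.2 and 33.9 CPM. It fell by 0.55 (SE 0.11, adjusted p = 0.00226) on the log2 scale. Tfe3 (ENSMUSG00000000134) was the most abundant by CPM, at 104 and 102 CPM against 135 and 127 CPM. Its groups did not overlap either, but its fall was small (log2 fold change -0.34, SE 0.09, adjusted p = 0.0102) and did not pass without control replicate 1 (adjusted p = 0.136) or without control replicate 2 (adjusted p = 0.0665). The remaining family member, Tfec, was at 12.2 and 15.2 CPM against 17.0 and 14.3 CPM, with overlapping groups (log2 fold change -0.18, SE 0.15, adjusted p = 0.343). These are mRNA levels, and the place of the factors in the cell was not measured.

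Genes for nutrient sensing and sorting to the lysosome, a list of 24, moved in both directions, with more rises than falls. The list had 23 tested genes, with 10 rises, 4 falls and 9 genes that did not pass, and a median log2 fold change of 0.12. It had 60.9% passing in either direction, against 49.6% of all tested genes and 61.1% of those with at least 20 CPM. By direction 43.5% rose and 17.4% fell, against 25.0% and 24.6% of all tested genes. Flcn, which codes for folliculin, acts with Fnip1 or Fnip2 on Rag GTPases such as Rragd so that the kinase complex can reach the factors. Rragd was at 12.8 and 15.7 CPM in the knockout and at 0.654 and 1.5 CPM in the control. This was the largest rise on the list, 13.1-fold (log2 fold change 3.71, SE 0.28, adjusted p = 1.08e-06). Flcn was at 76.9 and 69.3 CPM against 35.4 and 29.9 CPM, and rose 2.27-fold (adjusted p = 9.23e-06). Fnip1 and Fnip2, named after their values were seen, rose 2.27-fold and 1.81-fold. The more abundant Rag genes Rraga and Rragc, also named after their values were seen, did not pass, with log2 fold changes of -0.18 (SE 0.11) and 0.12 (SE 0.09), and neither did Mtor (0.02, SE 0.14), the kinase itself. Gga2, an adaptor for cargo of the mannose 6-phosphate receptors, rose 2.85-fold, while the sorting receptor gene Sort1, Nagpa, which completes the mannose 6-phosphate tag, and Lamtor2, part of the Rag anchor, fell by 0.99, 0.43 and 0.35 (log2).

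**Figure D3:**
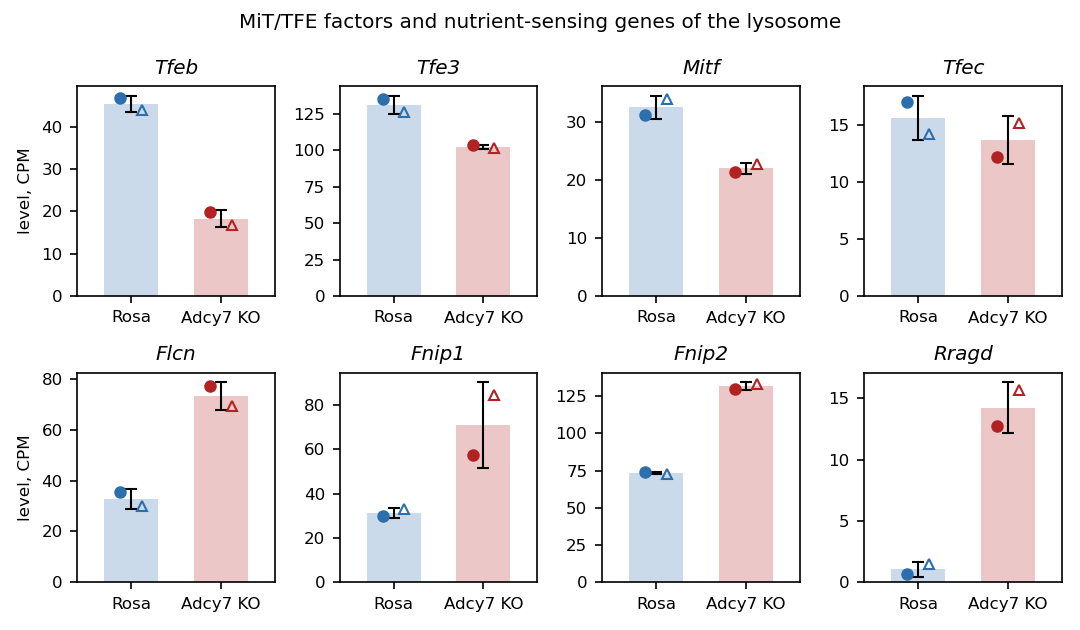
Levels in CPM of the 4 MiT/TFE family genes (top row) and of 4 nutrient-sensing genes (bottom row), with bars for the mean, whiskers for 1 SD and points for each of the 2 libraries per group. Tfeb, Tfe3 and Mitf are lower in both knockout libraries, Tfec overlaps, and Flcn, Fnip1, Fnip2 and Rragd are higher in both.

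MiT/TFE factors are known to bind the E-box CACGTG, best within the CLEAR palindrome, in which GT stands before it and AC after it, and also the M-box, whose core is CATGTG. Windows from 250 bases before to 50 bases after annotated start sites were searched on both strands in the RefSeq promoter table of build GRCm38.p6, another build than that of the counts. Of the 38 genes 31 had an entry, 15 of those that rose, 6 of those that fell and 10 of those that did not pass. The E-box was found in 9 of the 31 genes, or 29%, against 8.09% of the 27025 genes in the table. The genes of that table were not narrowed to those tested here or to those of a like level. The holders of the E-box were 6 of the 15 genes that rose, 0 of the 6 that fell and 3 of the 10 that did not pass. The 8-letter core TCACGTGA, which contains the E-box, was found in 4 genes, or 12.9% against 1.12%, and all 4 rose: Gla, Mcoln1, Atp6v0d1 and Atp6v1a. None of the 31 held the full 10-letter palindrome, which 0.37% of all genes did, and 6 of 31 held the M-box core (19.4% against 15.9%). Those with the M-box core were 4 genes that rose, 1 that fell and 1 that did not pass. A match describes these letters in this window and not binding. The 14 E-boxes are printed with their flanks because they include every match to the 8-letter core and come from membrane, hydrolase and pump genes, 5′ to 3′ on the gene's strand, with the E-box, or the 8-letter core where present, in capitals.
Gla (chrX:134601220-134601239, minus strand): gattgaTCACGTGAgcatct
Gla (chrX:134601187-134601206, minus strand): tctcggTCACGTGAgcaact
Mcoln1 (chr8:3500441-3500460, plus strand): cgcttgtCACGTGttcagtt
Mcoln1 (chr8:3500467-3500486, plus strand): ccccgcTCACGTGAccgcgg
Atp6v0d1 (chr8:105566055-105566074, minus strand): ctgcggTCACGTGAgacgcg
Atp6v1a (chr16:44139378-44139397, minus strand): tttaaaTCACGTGAtaggct
Gaa (chr11:119267816-119267835, plus strand): gtgcgatCACGTGtttgact
Naglu (chr11:101070014-101070033, plus strand): ttcaggtCACGTGgcccgag
Lamp1 (chr8:13159093-13159112, plus strand): aagatatCACGTGgtccagc
Lamp1 (chr8:13159109-13159128, plus strand): cagcgccCACGTGatgccga
Lamp1 (chr8:13159126-13159145, plus strand): cgactggCACGTGaccacat
Lamp1 (chr8:13159139-13159158, plus strand): accacatCACGTGcggaacg
Glb1 (chr9:114401023-114401042, plus strand): tctgagtCACGTGgcctaca
Sgsh (chr11:119355527-119355546, minus strand): tgccgtgCACGTGaccgtgg

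Gla held the 8-letter core at 2 places, and Lamp1, whose level did not pass, held the most E-boxes, 4. For comparison the whole windows are given for Atp6v0d1, which holds the core, and for Gpnmb, which had the largest rise in the set and holds neither E-box nor core, again with the core in capitals. No entry was present for Atp6v0d2, and none of the 3 start sites listed for Tfeb had an E-box.
Atp6v0d1 (chr8:105566015-105566314, minus strand): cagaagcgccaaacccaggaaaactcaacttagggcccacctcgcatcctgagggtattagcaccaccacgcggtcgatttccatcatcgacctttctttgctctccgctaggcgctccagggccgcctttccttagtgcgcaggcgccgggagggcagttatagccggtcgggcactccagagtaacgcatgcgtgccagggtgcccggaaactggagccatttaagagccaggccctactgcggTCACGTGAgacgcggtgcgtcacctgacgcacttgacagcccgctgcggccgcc
Gpnmb (chr6:49036268-49036567, plus strand): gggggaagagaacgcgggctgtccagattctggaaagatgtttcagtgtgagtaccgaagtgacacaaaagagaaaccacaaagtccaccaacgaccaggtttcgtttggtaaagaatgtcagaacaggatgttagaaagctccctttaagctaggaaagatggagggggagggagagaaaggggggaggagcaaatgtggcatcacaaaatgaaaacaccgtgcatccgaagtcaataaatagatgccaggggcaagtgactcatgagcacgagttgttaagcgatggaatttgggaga

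**Figure D4:**
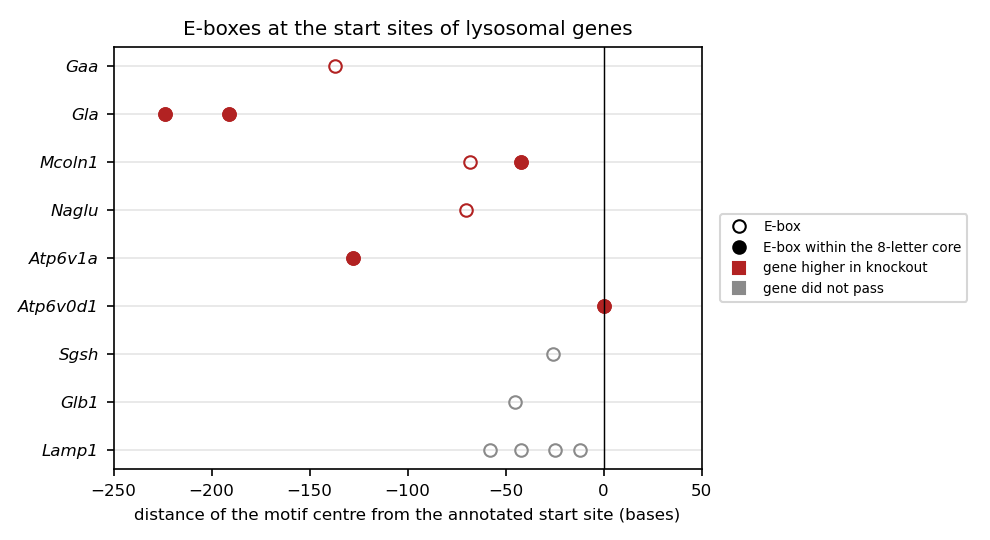
Distance in bases of each E-box from the annotated start site for the 9 genes that hold one, ordered by log2 fold change; filled circles mark E-boxes within the 8-letter core. The 5 filled circles belong to 4 genes, all of which were higher in the knockout.

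Among the membrane proteins 4 of 6 rose, each by more than 2-fold. Rises made up 66.7% of the 6, against 25.0% of all tested genes and 28.5% of those with at least 20 CPM. Gpnmb (ENSMUSG00000029816), a glycoprotein of melanosomes and of phagocytic compartments, was at 11578 and 11234 CPM in the knockout and at 2773 and 2689.8 CPM in the control. Both knockout libraries were far above the controls, 4.22-fold on average (log2 fold change 2.08, SE 0.10, adjusted p = 5.27e-08). Gpnmb alone took 1.16% and 1.12% of all knockout counts, and 0.277% and 0.269% of control counts. Cd63 (ENSMUSG00000025351), a tetraspanin of late endosomes, was at 729.9 and 649 CPM against 279 and 306 CPM, a rise of 2.38-fold (log2 fold change 1.25, SE 0.10, adjusted p = 2.67e-06). The copy Cd63-ps, which held 6.99% of the counts of both genes, rose 2.43-fold, and reads can be split between the copies. Mcoln1 (ENSMUSG00000004567), which codes for a channel that releases lysosomal calcium, was at 90.4 and 72.2 CPM against 38.1 and 37.7 CPM, a rise of 2.17-fold (SE 0.13 on the log2 scale, adjusted p = 2.73e-05). The knockout libraries differed more from each other here than the controls did, yet did not overlap them. Npc1 (ENSMUSG00000024413), which hands cholesterol out of the lysosome, was at 243 and 231 CPM against 117 and 113 CPM, a rise of 2.08-fold (SE 0.09, adjusted p = 3.56e-06). Its exons share 511 bases with the opposite-strand gene Rmc1 in the GRCm38 annotation, which rose 1.78-fold, and the labels name no strand-keeping method.

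The major glycoproteins of the lysosomal membrane did not pass. Lamp1 (ENSMUSG00000031447) was at 1709 and 1688 CPM in the knockout and at 1977 and 2039.6 CPM in the control, with separate groups (log2 fold change -0.23, SE 0.09, adjusted p = 0.0613). It passed with scaling to library totals (adjusted p = 0.0219), in DESeq2 (adjusted p = 0.0267) and without knockout replicate 1 (adjusted p = 0.0483), lower each time. Lamp2 (ENSMUSG00000016534) was at 416 and 567 CPM against 485 and 529 CPM, so the knockout libraries lay on either side of the controls (log2 fold change -0.03, SE 0.13, adjusted p = 0.848). Without knockout replicate 2 it was lower and passed (log2 fold change -0.24, adjusted p = 0.0429), and without knockout replicate 1 its sign turned (0.16).

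From a list of 34 other membrane proteins and transporters, 33 were tested: 12 rises, 5 falls and 16 genes short of the threshold (median log2 fold change 0.080). The share that passed, 51.5%, was near the 49.6% of all tested genes and below the 61.1% of those with at least 20 CPM. By direction 36.4% rose and 15.2% fell, against 25.0% and 24.6% of all tested genes. Mcoln2, a relative of Mcoln1, was at 101 and 97.9 CPM against 22.9 and 23.0 CPM and rose 4.37-fold (adjusted p = 3.96e-08). Slc15a3, a peptide and histidine carrier, and Laptm4b rose 3.26-fold and 4.91-fold. Tpcn1, which codes for another channel of endosomes and lysosomes, was at 21.1 and 23.1 CPM against 67.5 and 58.2 CPM and fell by 1.49 (SE 0.11) on the log2 scale. The nucleoside carrier gene Slc29a3 and Laptm5 fell by 1.11 and 0.62. Mcoln3, a relative of Mcoln1 and Mcoln2, rose 17.9-fold, from 0.243 and 0.329 CPM in the control, which is only 16 and 23 counts. Tpcn2 did not pass (log2 fold change -0.0054, SE 0.14). Every Mcoln gene thus rose, while Tpcn1 fell and Tpcn2 did not pass.

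Of the 10 hydrolases of carbohydrates and of heparan and keratan sulphate, 5 rose, 1 fell and 4 did not pass. In either direction 60% passed, against 49.6% of all tested genes and 61.1% of those with at least 20 CPM. By direction 50% rose and 10% fell, where 28.5% and 32.7% of the genes with at least 20 CPM did so. Gaa (ENSMUSG00000025579), the acid glucosidase that degrades glycogen, was at 423 and 366 CPM in the knockout and at 144 and 124 CPM in the control. It rose 2.98-fold (log2 fold change 1.57, SE 0.11, adjusted p = 7.25e-07), the largest rise among the hydrolases of the set. Gla (ENSMUSG00000031266), the galactosidase that acts on globotriaosylceramide and carries the 2 cores printed above, was at 259 and 280.2 CPM against 104 and 101 CPM. The controls were close together and well below the knockout, with a log2 fold change of 1.41 (SE 0.09, adjusted p = 3.4e-07). Naglu (ENSMUSG00000001751), an enzyme of heparan sulphate breakdown, was at 279 and 256 CPM against 138 and 133 CPM and rose 1.99-fold (SE 0.09, adjusted p = 7.36e-06). The sialidase gene Neu1 and the glucuronidase gene Gusb rose less, 1.41-fold and 1.23-fold. Gusb did not pass without control replicate 1 (adjusted p = 0.253) or without control replicate 2 (adjusted p = 0.0981).

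Galns (ENSMUSG00000015027), a sulphatase of keratan sulphate, was the member of this group that fell. Its levels were 76.2 and 67.1 CPM in the knockout and 137 and 122 CPM in the control, or 55.9% of the control level (log2 fold change -0.84, SE 0.11, adjusted p = 6.78e-05). The groups did not overlap. Sgsh, Hexa, Man2b1 and Glb1 did not pass and had log2 fold changes between -0.15 and 0.23. Hexa passed in DESeq2 (adjusted p = 0.0327) and without knockout replicate 2 (adjusted p = 0.0116), higher each time. Naglu and Sgsh both act on heparan sulphate and had log2 fold changes of 0.99 (SE 0.09) and 0.23 (SE 0.12), a difference that was not tested.

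Among the 8 hydrolases of proteins and lipids, carriers and cofactors, 1 rose, 2 fell and 5 did not pass. In either direction 37.5% passed, fewer than the 49.6% of all tested genes and the 61.1% of those with at least 20 CPM. Lipa (ENSMUSG00000024781), the acid lipase that frees cholesterol and fatty acids from lipoprotein lipids, was at 229 and 227 CPM in the knockout and at 514 and 500.4 CPM in the control. The libraries of each group were nearly equal, and the knockout kept 45.5% of the control level (log2 fold change -1.14, SE 0.09, adjusted p = 1.45e-06). Lipa feeds cholesterol to Npc2 and Npc1, of which Npc2 did not pass (log2 fold change -0.13, SE 0.09, adjusted p = 0.237) and Npc1 rose. Grn (ENSMUSG00000034708), which codes for progranulin, was at 1321 and 1155 CPM against 1847 and 1626 CPM and fell by 0.47 (SE 0.11, adjusted p = 0.0038) on the log2 scale. Tpp1 (ENSMUSG00000030894), a peptidase that removes tripeptides, was at 357 and 331 CPM against 230.1 and 212 CPM and rose 1.58-fold (SE 0.09, adjusted p = 0.000167). Both knockout libraries of Tpp1 were above both controls, and those of Grn were below.

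Genes for the breakdown of sphingomyelin and ceramide were among those that did not pass. Psap, the precursor of the saposins that present sphingolipids to hydrolases, was at 8695 and 7993 CPM against 9851 and 8731 CPM (log2 fold change -0.14, SE 0.11, adjusted p = 0.322). The acid sphingomyelinase gene Smpd1 and the acid ceramidase gene Asah1 had log2 fold changes of 0.05 (SE 0.11) and 0.13 (SE 0.12), with overlapping groups. Asah1 differed between the knockout libraries, at 256 and 334 CPM, and passed as higher without replicate 1 of the knockout (log2 fold change 0.29, adjusted p = 0.0158). Ppt1, the enzyme that removes palmitate from proteins, had a log2 fold change of -0.09 (SE 0.09), and shares 129 exon bases with the opposite-strand gene Cap1, whose counts were higher than its own.

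Other hydrolases and activators, a list of 35 genes, were divided between rises and falls. The 34 tested genes gave 13 rises, 11 falls and 10 genes short of the threshold (median log2 fold change 0.015). In either direction 70.6% passed, against 49.6% of all tested genes and 61.1% of those with at least 20 CPM. By direction, 38.2% of the list rose and 32.4% fell, against 28.5% and 32.7% of the genes with at least 20 CPM. Acp5, the tartrate-resistant phosphatase, was at 362 and 326 CPM against 41.5 and 40.7 CPM, an 8.46-fold rise (adjusted p = 3.45e-09). Dpp7, a dipeptidase, was at 99.4 and 92.8 CPM against 31.2 and 32.9 CPM and rose 3.03-fold (adjusted p = 3.91e-07). Lgmn, an asparagine-specific protease, was at 99.4 and 90.9 CPM against 472 and 450.3 CPM and fell by 2.26 (SE 0.10) on the log2 scale. Plbd1 and Smpdl3a fell by 1.65 and 1.67. Acp5 is also an osteoclast marker. Of 9 osteoclast markers 6 were tested, 3 rose (Acp5, Ctsk and Itgb3) and 2 fell, where 25.0% and 24.6% of all tested genes did so. Calcr was at 0 in all libraries, and Dcstamp was at 0.356 CPM or less. The summed level of that list was 1924 to 2307 CPM in the knockout and 2804 to 2895 CPM in the control, most of it from Mmp9, and its part in the rises was not tested.

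Most proton pump genes of the set rose. Of 5 members of V0 and its accessory proteins 4 rose and 1 fell, and of 6 members of V1 5 rose and 1 fell. The median log2 fold change of the 11 pump members was 0.66, and all 11 had groups that did not overlap, as did 75.2% of all tested genes. Their summed level was 3986 and 3994 CPM in the knockout and 2688 and 2724 CPM in the control. Of 15 further pump genes 8 were tested, 5 rose, 0 fell and 3 did not pass. Rises made up 81.8% of the 11 members and 62.5% of these 8, against 25.0% of all tested genes and 28.5% of those with at least 20 CPM. Falls made up 18.2% and 0%, against 24.6% and 32.7%.

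In V0, the ring that carries protons is built of proteolipids such as that of Atp6v0c (ENSMUSG00000024121), which was at 1581 and 1451 CPM in the knockout and at 831 and 787 CPM in the control. It rose 1.90-fold (log2 fold change 0.92, SE 0.10, adjusted p = 1.44e-05), and its copy Atp6v0c-ps2, with 6.82% of the counts of both, rose 1.87-fold. Atp6v0b and Atp6v0e, which code for other small subunits of this sector, rose 2.13-fold and 2.15-fold. Atp6ap1 (ENSMUSG00000019087), an accessory protein, was at 517 and 477 CPM against 307 and 329 CPM and rose 1.58-fold (SE 0.10, adjusted p = 0.000193). For each of these genes both knockout libraries stood above both controls.

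The d subunit, which joins the ring to the central stalk, comes as Atp6v0d1, found in most cells, or Atp6v0d2, known from osteoclasts and some macrophages. Atp6v0d2 (ENSMUSG00000028238) was at 3.89 and 4.63 CPM in the knockout and at 1.20 and 1.23 CPM in the control, which is 79 and 86 counts in the control libraries. It had the second-largest rise in the set, 3.52-fold (log2 fold change 1.82, SE 0.27, adjusted p = 0.000213), with the widest error. Atp6v0d1 (ENSMUSG00000013160) was at 342 and 308 CPM against 229 and 236 CPM and rose 1.41-fold (SE 0.10, adjusted p = 0.0014). Per length, as CPM per kilobase of the longest coding transcript, Atp6v0d2 made up 0.725% and 0.956% of the d subunit transcripts in the knockout and 0.335% and 0.334% in the control. Atp6v0d1 thus remained by far the main isoform in every library despite the larger fold change of Atp6v0d2.

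The a subunit, which holds the path of the protons, differed by isoform. Atp6v0a1 (ENSMUSG00000019302) was at 48.1 and 49.6 CPM in the knockout and at 71.7 and 62.8 CPM in the control and fell by 0.44 (SE 0.10, adjusted p = 0.00395) on the log2 scale. Without control replicate 1 the fall did not pass (adjusted p = 0.083). Tcirg1, the a3 isoform that osteoclasts need for acid secretion, was at 594 and 538 CPM against 422 and 352 CPM and rose 1.48-fold (adjusted p = 0.00119). Atp6v0a2 did not pass (log2 fold change -0.04, SE 0.10). Per length, Tcirg1 made up 89.7% and 88.8% of the transcripts of these 3 isoforms in the knockout and 82.9% and 81.6% in the control, so its share was higher in both knockout libraries.

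V1 hydrolyses ATP in a ring of alternating A and B subunits, and their genes moved apart. Atp6v1a (ENSMUSG00000052459) was at 335 and 421 CPM in the knockout and at 245 and 280.4 CPM in the control, and rose 1.45-fold (log2 fold change 0.54, SE 0.12, adjusted p = 0.00301). Atp6v1b2 (ENSMUSG00000006273), the B subunit of most cells, was at 339.5 and 348 CPM against 479.8 and 493 CPM and fell by 0.49 (SE 0.09, adjusted p = 0.000835) on the log2 scale. The ratio of Atp6v1b2 to Atp6v1a CPM was 1.01 and 0.827 in the knockout and 1.96 and 1.76 in the control. The other B gene, Atp6v1b1, had no count in any library.

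The remaining V1 members rose. Atp6v1c1 (ENSMUSG00000022295), whose product helps V1 and V0 to join, was at 160.4 and 184 CPM against 88.7 and 94.7 CPM, a rise of 1.90-fold (SE 0.10, adjusted p = 2e-05). Atp6v1e1 (ENSMUSG00000019210), of the outer stalks, was at 425 and 472 CPM against 259 and 261 CPM and rose 1.74-fold (SE 0.09, adjusted p = 2.77e-05). Atp6v1h (ENSMUSG00000033793), a regulatory subunit, was at 108 and 130.0 CPM against 76.1 and 75.0 CPM and rose 1.59-fold (SE 0.10, adjusted p = 0.000286). In all 3 genes both knockout libraries were above the controls. Atp6v1d, of the central stalk, rose 1.36-fold (adjusted p = 0.00452), and did not pass without control replicate 1 (adjusted p = 0.0671).

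**Figure D5:**
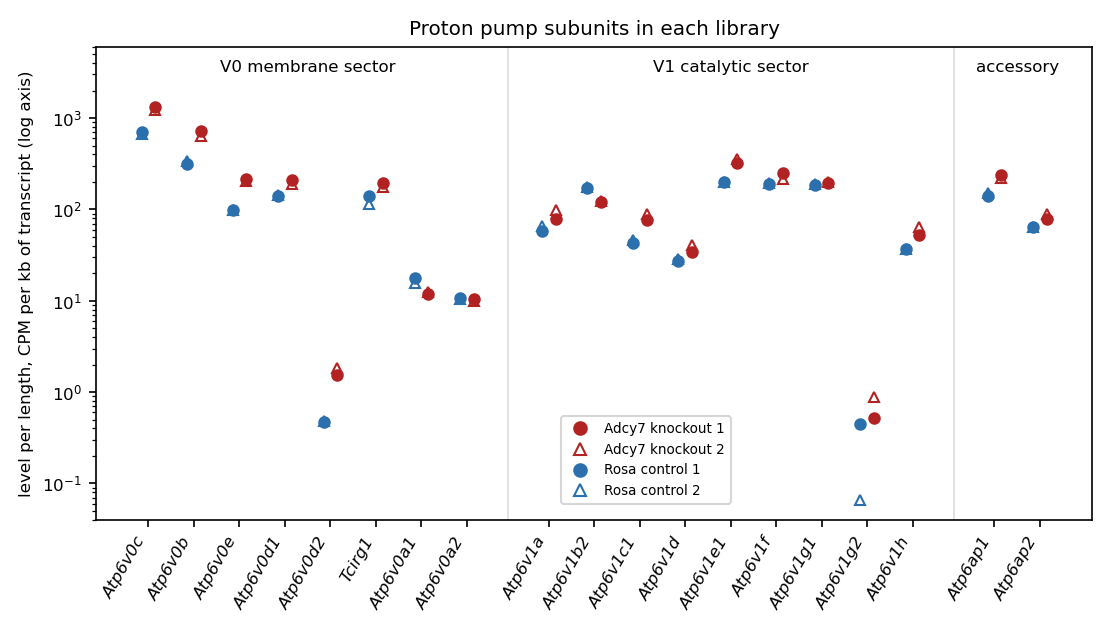
Level per length of the tested proton pump genes in each library, in CPM per kilobase of the longest coding transcript on a log axis, by sector. Knockout points (red) lie above control points (blue) for most subunits, and below them for Atp6v0a1, Atp6v0a2 and Atp6v1b2.

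Autophagy delivers cell contents to the lysosome, and part of its genes are also known targets of the MiT/TFE factors. Of 28 autophagy genes, all tested, 11 rises and 5 falls passed, and 12 genes did not (median log2 fold change 0.14). Sqstm1, the receptor that brings ubiquitin-marked cargo, was at 2449.7 and 2221 CPM in the knockout and at 392 and 413 CPM in the control, and rose 5.87-fold (adjusted p = 1.31e-08). Map1lc3a and Optn, another cargo receptor gene, rose 2.41-fold and 2.68-fold. Atg9b, Atg7 and Vps11 fell by 1.84, 0.48 and 0.43 on the log2 scale, and Atg9b was low in all libraries, at 0.712 to 2.98 CPM. In either direction 57.1% of the list passed, between the 49.6% of all tested genes and the 61.1% of those with at least 20 CPM. By direction 39.3% rose and 17.9% fell, against 25.0% and 24.6% of all tested genes.

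Markers of other cells also differed between the same libraries. For comparison, 25.0% of all tested genes rose and 24.6% fell. The summed levels of the marker lists were 222 to 281 CPM in the knockout and 30.9 to 34.0 CPM in the control for 8 eosinophil genes (6 of 7 tested rose). They were 62.8 to 64.6 CPM against 24.8 to 32.8 CPM for 11 mast cell and basophil genes (6 of 7 rose, with Mcpt4, Cma1 and Tpsab1 at 0), and 377 to 431 CPM against 193 to 209 CPM for 11 megakaryocyte and platelet genes (11 of 11 rose). For 10 dendritic cell genes they were 90.9 to 96.0 CPM against 8.70 to 9.03 CPM (6 of 8 rose), and for 7 B cell genes 112 CPM in both knockout libraries against 48.6 to 51.8 CPM (6 rose and 1 fell). For 9 stromal genes they were 77.1 to 85.8 CPM against 2.75 to 3.57 CPM (4 of 7 rose), with most of the knockout sum from Dcn and Thy1. The collagen genes Col1a1, Col1a2 and Col3a1 were at 0.761 CPM or less in every library and did not pass. For 8 T and NK cell genes the sums were 2.52 to 2.98 CPM against 0.172 to 0.471 CPM (1 of 3 rose, with Ncr1 at 0). Neutrophil genes were abundant in both groups, at 5244 to 6709 CPM and 5862 to 7153 CPM (0 of 10 rose and 5 fell). The genes with the highest levels on these lists were Prg2 and Epx (eosinophil), Hdc and Gata2 (mast cell and basophil), Pf4 and Itga2b (megakaryocyte), Fscn1 and Ccr7 (dendritic), Blnk and Cd79b (B cell), Dcn and Thy1 (stromal), Gzmb and Cd3d (T and NK) and S100a9 and Ngp (neutrophil). In the knockout, Prg2 gave most of the eosinophil sum and Blnk most of the B cell sum. Siglecf (eosinophil) and Hdc did not pass, and Hdc was at 30.1 and 31.1 CPM in the knockout. The part of these cells in the lysosomal values was not tested.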

How the data were processed

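Poly(A) RNA was sequenced from 4 libraries, with inserts of about 300 bp. Estimated counts (expected counts) for each Ensembl gene were deposited as 1 table of whole numbers, and the differing column totals show no scaling. The submitters' processing notes name fastp, HISAT2, StringTie, edgeR and build GRCm39, without settings. Among small counts 30.5% to 32.2% were multiples of 4, where 25% would be expected without a step, so 1 fragment may stand for about 4 counts. Control columns were matched to sample titles by target and replicate number. The knockout columns name no target: they were matched by the letters KO, which only the Adcy7 titles carry, and by replicate number, and the meaning of a further digit in their names is not given.

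Symbols came from a GRCm38 annotation (55141 of 55401 IDs matched). R 4.3.3 with edgeR 4.0.16 was used: filterByExpr left 15832 genes, scaling was by TMM, and the quasi-likelihood test (newer dispersion estimate) had 2 residual degrees of freedom. The test draws the spread of each gene toward that of the other tested genes, so SEs and p-values rest on more than the gene's own values. Adjusted p-values (Benjamini-Hochberg) cover every tested gene, with 0.05 as the limit. SEs are the log2 fold change over the root of the F statistic. The test was checked on simulated counts. Same-numbered libraries were not taken as pairs (correlation of their deviations across genes 0.014). Replicates differed by more than sampling noise, with chi-square per degree of freedom of 10.6 (knockout) and 6.24 (control) on counts over 4.

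The genes and lists were chosen with earlier results of these data known. Values per library are given for the factors and, in each role, for up to 4 passing genes with the largest change, plus those that did not pass where 3 or fewer. Other lists give up to 3 rises and 3 falls with the smallest adjusted p (1 such gene is not reported here), and marker lists give genes at 0 and the 2 highest. Other genes named were chosen after their values were seen, as was the level of 20 CPM. Alternatives were DESeq2 1.42.0, other scalings, no filter, a replicate block, leaving out each library, counts over 4 and, added after seeing the data, the older dispersion estimate of edgeR.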

Additional observations from a re-analysis of the deposited data

How the results depend on the processing

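All 27 lysosomal calls kept their direction and passed under RLE size factors, library totals, no filter, DESeq2, counts divided by 4, the older dispersion estimate and the replicate block. With the replicate block 7843 genes passed (7848 without it), with 19 lysosomal rises and 8 falls as before, and it changed no lysosomal call. Over the other settings that kept all libraries, 6167 (no filter) to 7852 genes (RLE) passed. Leaving out 1 library gave 6091 to 7554 genes, 17 to 20 lysosomal rises and 6 to 9 falls. The lone library of a group is then assumed to vary like the other group. Calls were lost only without a control library: Tfe3, Gusb, Atp6v0a1 and Atp6v1d without replicate 1, and Tfe3 and Gusb without replicate 2. Signs turned in 3 genes that had not passed: Lamp2 (-0.24 to 0.16 over these fits, and 0.045 without control replicate 2), Asah1 (-0.039 without knockout replicate 2 and 0.29 without replicate 1) and Smpd1 (-0.062 without knockout replicate 1 and 0.17 without replicate 2), the log2 fold change each time. The cause was not tested. With 2 libraries a group, small changes of abundant genes such as Lamp1 and Hexa cannot be settled, and Atp6v0d2, at 79 to 286 counts, had the widest error of the set.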
